A study of Homo sapiens with 6 samples.

Results

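The S100 proteins are small calcium-binding proteins, and 10 of their genes, S100A2, S100A4, S100A6, S100A9, S100A10, S100A11, S100A13, S100A14, S100A16 and S100P, were followed here in paclitaxel-resistant breast cancer cells. These 10 were a given list of names, and each gene's counts were the sum over its annotated transcripts, out of 61015 genes with at least 1 transcript on file. All 6 libraries came from MDA-MB-231, an established human line of triple-negative breast cancer, in a derivative made resistant to paclitaxel (PTX), a taxane that stabilises microtubules. The cells were sorted with a fluorescent assay of aldehyde dehydrogenase (ALDH) activity into breast cancer stem-like cells (BCSC, ALDH+, 3 libraries) and non-BCSC (ALDH-, 3 libraries), so both groups carry the resistance and differ in the sort. The comparison asks which of these genes differ between the ALDH+ and ALDH- fractions of the resistant line. Group membership was read from the titles, since the label for cell type does not separate the 6 libraries. A single cell line was used, and the labels do not say whether the 3 libraries of a group came from separate cultures or sorts, so p-values measure only the spread between these libraries.

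S100 proteins bind calcium through a pair of EF-hand loops, usually as dimers, and on binding most of them expose a surface that docks onto partner proteins such as annexins and myosin. Some are also released from cells and act on receptors, among them AGER (the receptor for advanced glycation end products) and TLR4. In breast cancer the family is known mainly for S100A4, which binds non-muscle myosin and is tied to motility and metastasis, for S100A10, which with annexin A2 forms a cell-surface complex that binds plasminogen, and for the myeloid pair S100A8 and S100A9. Most of the genes lie together on the long arm of chromosome 1, and S100P lies on chromosome 4.

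Total counts ran from 9898588 to 21215352 per library, and a count of 0 allows up to 3 counts, or 0.148 to 0.288 CPM (each count per 1e6 of its library's effective total). These limits cover counting error only, since the reads carry no molecular identifiers. Of 7 genes known to be high in MDA-MB-231, such as VIM and CD44, all 7 passed the low-count filter. In bulk libraries of this kind, fewer cells with a transcript and less of it per cell cannot be told apart. A set of 406 olfactory receptor genes, which such cells should not transcribe, held 1.05 to 3.19 counts per kilobase in the BCSC libraries and 8.29 to 15.3 in the non-BCSC libraries. This level of scattered reads is used as a background below, and its part in each result was not tested beyond the values given with it removed.

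The start regions of 5 members are shown because the results turn on these genes: S100A10, S100A11 and S100A16 were higher in BCSC, S100A6 did not pass the test, and S100A4 had different shares of its counts at this start in the 2 groups. Each sequence is the 100 bases just upstream of the RefSeq start site on GRCh38.p14, written 5′ to 3′ on the gene's strand, and all 5 genes are on the minus strand of chromosome 1. The windows are chr1:151993860-151993959 for S100A10, chr1:152037005-152037104 for S100A11, chr1:153613138-153613237 for S100A16, chr1:153535992-153536091 for S100A6 and chr1:153545807-153545906 for S100A4. Capitals mark matches to TATAAA, known as the TATA box, to its variant spelled TATAAG, and to the core motif of Sp1 sites, which is GGGCGG. The S100A6 window has 3 matches of the last kind, a pair of which overlap.
S100A10: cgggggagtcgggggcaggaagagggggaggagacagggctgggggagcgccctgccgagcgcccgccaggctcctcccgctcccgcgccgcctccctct
S100A11: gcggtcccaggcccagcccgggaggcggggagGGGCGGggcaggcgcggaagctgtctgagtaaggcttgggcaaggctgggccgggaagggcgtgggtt
S100A16: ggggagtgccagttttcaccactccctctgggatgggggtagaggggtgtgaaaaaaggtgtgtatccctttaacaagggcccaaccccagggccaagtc
S100A6: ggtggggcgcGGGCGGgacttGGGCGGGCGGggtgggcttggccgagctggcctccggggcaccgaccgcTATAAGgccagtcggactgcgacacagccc
S100A4: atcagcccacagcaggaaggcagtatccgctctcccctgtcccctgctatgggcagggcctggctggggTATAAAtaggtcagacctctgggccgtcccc

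The TATAAA match of S100A4 began at position -31 from the start, and the TATAAG match of S100A6 at position -30. None of the 3 windows of S100A10, S100A11 and S100A16 held either form on either strand. Over 35116 RefSeq promoter windows of the same length and with both strands searched, 6.82% held TATAAA or TATAAG and 31.3% held GGGCGG. The GC content of the windows was 79.0% for S100A10, 75.0% for S100A11, 76.0% for S100A6, 63.0% for S100A4 and 57.0% for S100A16, against a median of 60.0% over all windows. A match is only a description of the letters.

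Of the 10 genes, 7 passed the low-count filter, and 3 of these, S100A10, S100A11 and S100A16, rose in BCSC, while none was called lower. A gene was called at an adjusted p under 0.05 in edgeR's quasi-likelihood test with Benjamini-Hochberg adjustment over all 20442 genes tested, together with a fold above 2, the criterion of the study's methods. By the same rule 8.85% of all tested genes were called higher in BCSC and 11.3% were called lower. The median log2 fold change (BCSC over non-BCSC throughout) was 0.65 over the 7 tested members and -0.05 over all tested genes. Both the share called higher and the median rose with the GC content of the transcripts, as described below. All 7 tested members lie above the median GC content of tested genes. The 3 called members were also the 3 whose groups did not overlap, a pattern seen in the higher direction in 24.2% of all tested genes. The other 3 genes, S100A9, S100A14 and S100P, were at or near 0 and could not be tested.

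**Figure D1:**
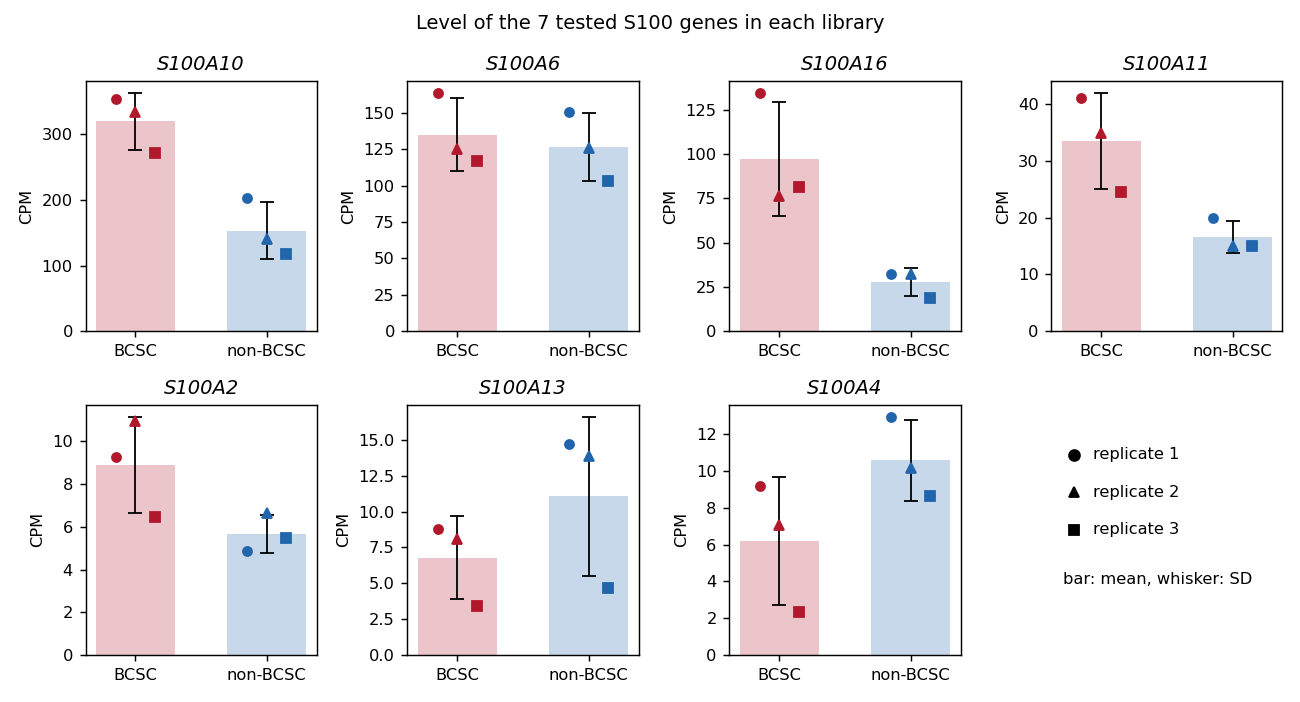
Level of each tested S100 gene by library, in CPM on a linear axis from 0 in each panel, with libraries as points, group means as bars and SD as whiskers (n = 3). The 3 BCSC points lie above all 3 non-BCSC points for S100A10, S100A11 and S100A16, and the groups overlap for S100A2, S100A4, S100A6 and S100A13.

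S100A10 (ENSG00000197747, GRCh37 chromosome 1, 151955391 to 151966335, minus strand) encodes p11, the light chain of the annexin A2 complex, whose calcium loops are inactive so that it stays in its docking form. It was counted 7178, 5121 and 4479 times in BCSC 1, 2 and 3 and 2449, 1583 and 1227 times in non-BCSC 1, 2 and 3. Scaled to library size these were 354, 334 and 271 CPM in BCSC and 202, 140 and 118 CPM in non-BCSC. The lowest BCSC library stood above the highest non-BCSC library, and non-BCSC 1 was the highest of its group. The means were 319.5 ± 43.2 CPM and 153 ± 43.8 CPM (SD, n = 3 each), a log2 fold change of 1.06 (SE 0.19, adjusted p = 0.0045 by edgeR's quasi-likelihood test), or 2.08-fold. The 95% interval of the log2 fold change ran from 0.63 to 1.49. The adjusted p stayed under 0.05 in all 13 alternative fits, but the fold fell under 2 in 6 of them, including those without BCSC 1 (0.98) and without non-BCSC 3 (0.92).

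S100A16 (ENSG00000188643, chromosome 1, 153579362 to 153585621, minus strand) encodes a widely expressed member that binds calcium weakly. It had the largest difference of the 7. Its counts were 2732, 1167 and 1343 in the BCSC libraries and 394, 368 and 195 in the non-BCSC libraries. BCSC 1 was the highest of all and non-BCSC 3 the lowest, and the groups were well apart. The levels were 97.3 ± 32.4 CPM and 27.9 ± 7.97 CPM (SD, n = 3 each). The log2 fold change was 1.80 (SE 0.28, adjusted p = 0.0023 by edgeR's quasi-likelihood test), with a 95% interval of 1.18 to 2.42, or 3.48-fold. S100A16 was the 1 member called in every one of the 13 alternative fits, where its log2 fold change ranged from 1.15 to 1.98.

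S100A11 (ENSG00000163191, chromosome 1, 152004982 to 152020383, minus strand) encodes calgizzarin, a partner of annexin A1 that takes part in membrane repair and growth control. Its counts were 835, 536 and 405 in BCSC against 241, 170 and 156 in non-BCSC. All 3 BCSC libraries were higher than all 3 non-BCSC libraries, with BCSC 3 the nearest to the other group. The levels were 33.5 ± 8.41 CPM and 16.6 ± 2.83 CPM (SD, n = 3 each), a log2 fold change of 1.01 (SE 0.25, adjusted p = 0.016 by edgeR's quasi-likelihood test). Its 95% interval was 0.45 to 1.57. This call sat at the edge of both thresholds: it was kept in 3 of the 13 alternative fits, and the adjusted p passed 0.05 when BCSC 1, BCSC 2, non-BCSC 2 or non-BCSC 3 was left out, reaching 0.071.

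S100A6 (ENSG00000197956, chromosome 1, 153507075 to 153508720, minus strand) encodes calcyclin, a binding partner of annexins and of CACYBP, and was the other abundant member. Its counts were 3325, 1915 and 1929 in BCSC against 1823, 1429 and 1078 in non-BCSC. Once scaled, the libraries overlapped, at 117 to 164 CPM in BCSC and 103 to 150 CPM in non-BCSC. The means were 135 ± 25.2 CPM and 127 ± 23.5 CPM (SD, n = 3 each), a log2 fold change of 0.09 (SE 0.17, adjusted p = 0.71 by edgeR's quasi-likelihood test). The 95% interval, from -0.29 to 0.47, lies inside a 2-fold difference either way. The sign turned in 5 of the 13 alternative fits, and with the correction for GC content and length the value was -0.51 (adjusted p = 0.0086).

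S100A2 (ENSG00000196754, chromosome 1, 153533584 to 153540366, minus strand), a mainly nuclear member that binds p53 and marks basal epithelium, was low. Its counts were 188, 168 and 107 in BCSC against 59, 75 and 57 in non-BCSC. BCSC 3 lay just below the highest non-BCSC library once scaled. The log2 fold change was 0.65 (SE 0.38, adjusted p = 0.22 by edgeR's quasi-likelihood test), with a 95% interval from -0.20 to 1.50.

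S100A4 (ENSG00000196154, chromosome 1, 153516089 to 153522612, minus strand), the metastasis-associated myosin-binding member, had counts of 186, 108 and 39 in BCSC against 157, 115 and 90 in non-BCSC. BCSC 3 was far below the other libraries at 2.36 CPM, and BCSC 1 overlapped the non-BCSC group. The levels were 6.19 ± 3.48 CPM and 10.6 ± 2.19 CPM (SD, n = 3 each). The log2 fold change was -0.77 (SE 0.49, adjusted p = 0.25 by edgeR's quasi-likelihood test), with a 95% interval from -1.87 to 0.32.

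S100A13 (ENSG00000189171, chromosome 1, 153591263 to 153603836, minus strand), which takes part in the release of FGF1 and IL1A without a signal peptide, had counts of 178, 124 and 57 in BCSC against 178, 157 and 49 in non-BCSC. The third library was the lowest in both groups, and the groups overlapped. The log2 fold change was -0.71 (SE 0.51, adjusted p = 0.32 by edgeR's quasi-likelihood test), with a 95% interval from -1.86 to 0.44. A 2-fold difference lies inside the interval of S100A2 upward and inside those of S100A4 and S100A13 downward, so these data do not show that the 3 genes were equal between groups.

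**Figure D2:**
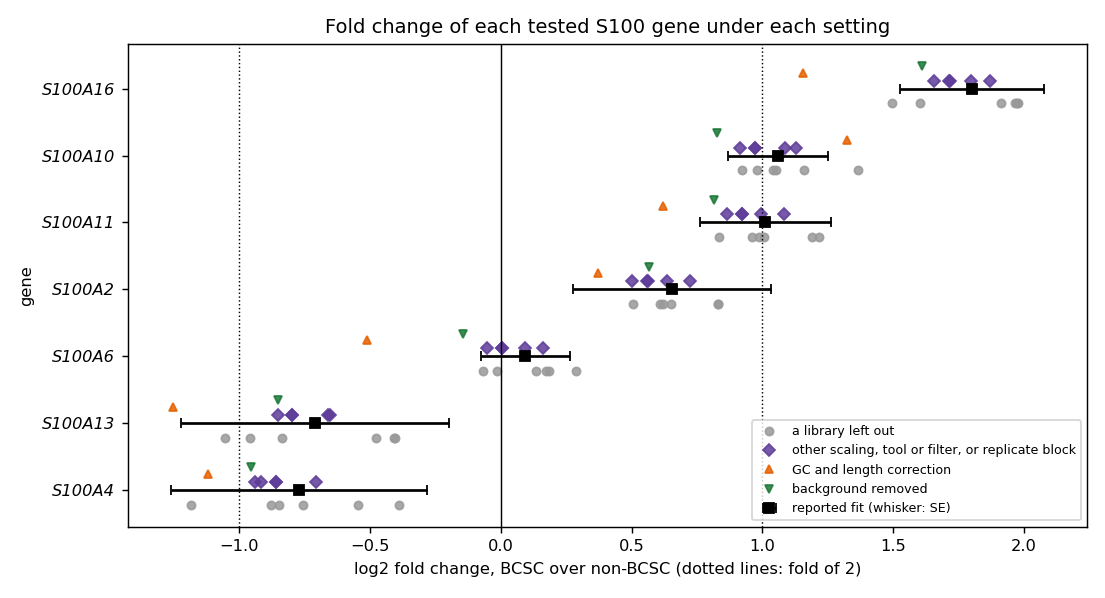
Log2 fold change of BCSC over non-BCSC for each tested member under the reported fit (square, whisker SE) and each alternative (other symbols), with dotted lines at a 2-fold difference. S100A16 stays above the upper line throughout, S100A10 and S100A11 cross it, and S100A6 lies on both sides of 0.

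The remaining 3 members gave nearly no counts. S100A9 (chromosome 1, 153330330 to 153333499, plus strand), a subunit of calprotectin, had 36 counts in non-BCSC 1 and 0 in the other libraries. S100A14 (chromosome 1, 153586731 to 153589462, minus strand), an epithelial member, had 19 counts in non-BCSC 1, 12 in non-BCSC 2 and 0 elsewhere, which is 1.05 times the background of the non-BCSC libraries for its length. S100P (chromosome 4, 6695605 to 6698897, plus strand), known from pancreatic and other carcinomas, had 0 in all 6 libraries. For these 3 genes a difference was not detectable at this depth.

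Set against one another per length of transcript, as TPM (counts per base of transcript, scaled to a fixed sum in each library and computed here), the members spanned a wide range. In BCSC the order was S100A10 at 1252 ± 129 TPM, S100A6 at 787 ± 123, S100A16 at 216 ± 63.5 and S100A11 at 154 ± 33.3 (SD, n = 3), followed by S100A2 at 26.4 ± 5.64, S100A4 at 25.9 ± 14.4 and S100A13 at 19.2 ± 9.65 TPM. In non-BCSC S100A6 came first at 757 ± 112 TPM and S100A10 second at 603 ± 145, followed by S100A11 at 77.1 ± 10.4, S100A16 at 62.0 ± 16.1, S100A4 at 51.9 ± 8.77, S100A2 at 18.5 ± 1.44 and S100A13 at 13.5 ± 6.62 TPM. S100A13 thus had the higher mean in BCSC by TPM and in non-BCSC by CPM, with overlapping groups on both scales. In BCSC the ranges of the libraries overlapped between the neighbours S100A16 and S100A11 and among the 3 lowest members. In non-BCSC they overlapped between S100A6 and S100A10, between S100A11, S100A16 and S100A4 as neighbours, and between S100A2 and S100A13. The summed level of the members was 607 ± 108 CPM in BCSC and 354 ± 84.5 CPM in non-BCSC (SD, n = 3), and the 3 most counted members, S100A10, S100A6 and S100A16, made up 91.0% and 87.1% of the members' counts.

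Ratios between members within a library do not depend on library size, and those given here were chosen after their values were seen, so they carry no test. S100A10 had 2.16 to 2.67 counts per count of S100A6 in the BCSC libraries and 1.11 to 1.34 in the non-BCSC libraries. S100A16 had 0.609 to 0.822 per count of S100A6 in BCSC against 0.181 to 0.258 in non-BCSC. S100A4 had 0.0202 to 0.0564 in BCSC against 0.0805 to 0.0861 in non-BCSC, a narrow range in the latter. All 3 ratios kept the groups apart, the first 2 higher in BCSC and the last lower.

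The file counts transcripts, so the members could also be followed by isoform. Of 43 annotated transcripts of the 10 genes, 32 had at least 1 count and 20 passed the filter among 46176 transcripts tested. None was called in edgeR's quasi-likelihood test, where 0.593% of all tested transcripts were called higher and 0.191% lower. The smallest adjusted p among the 20 was 0.076. The 4 more abundant genes were each carried by 1 transcript: S100A10-202 held 97.8% ± 0.447 of the S100A10 counts in BCSC against 97.3% ± 1.32 in non-BCSC, S100A11-201 held all S100A11 counts, S100A16-204 held 94.3% ± 4.71 and 99.7% ± 0.586, and S100A6-201 held 90.4% ± 3.16 and 96.9% ± 1.91 (SD, n = 3).

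S100A4 was divided differently between its transcripts in the groups. The 3 transcripts that begin at the start shown above (S100A4-201, S100A4-204 and S100A4-205) had 86, 43 and 14 counts in BCSC against 142, 110 and 87 in non-BCSC. They made up 46.2%, 39.8% and 35.9% of the gene's counts in the BCSC libraries and 90.4%, 95.7% and 96.7% in the non-BCSC libraries. The groups were far apart in this share, which was examined after the isoform counts were seen and is given with no test. Most of the other counts in BCSC came from S100A4-206, a transcript with no defined coding sequence, with 69, 47 and 22 counts in BCSC against 4, 5 and 3 in non-BCSC. Tested among all transcripts, S100A4-206 had a log2 fold change of 2.93 (adjusted p = 0.093 by edgeR's quasi-likelihood test), which missed the threshold. The main coding transcript S100A4-204 had a log2 fold change of -2.16 (adjusted p = 0.29 in the same test).

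S100A13 showed a similar division. Its coding transcripts (S100A13-201 to S100A13-205) had 102, 62 and 19 counts in BCSC against 5, 0 and 0 in non-BCSC. The long transcript S100A13-206, 2184 bases with no defined coding sequence, had 76, 62 and 38 counts in BCSC against 173, 157 and 49 in non-BCSC. It thus held 53.1% ± 12.3 of the gene's counts in BCSC against 99.1% ± 1.62 in non-BCSC (SD, n = 3). Background at the level of the olfactory receptor genes would give a transcript of that length 18.1, 21.8 and 33.4 counts in the non-BCSC libraries. The coding transcript S100A13-203, with 54, 35 and 18 counts in BCSC against 0 in every non-BCSC library, had the smallest adjusted p of all members' transcripts (0.076 by edgeR's quasi-likelihood test). How reads were assigned among overlapping transcripts is not given in the sources used here. S100A13 also overlaps S100A1 on the other strand and the lncRNA gene ENSG00000271853 on its own, so the split between them is uncertain.

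**Figure D3:**
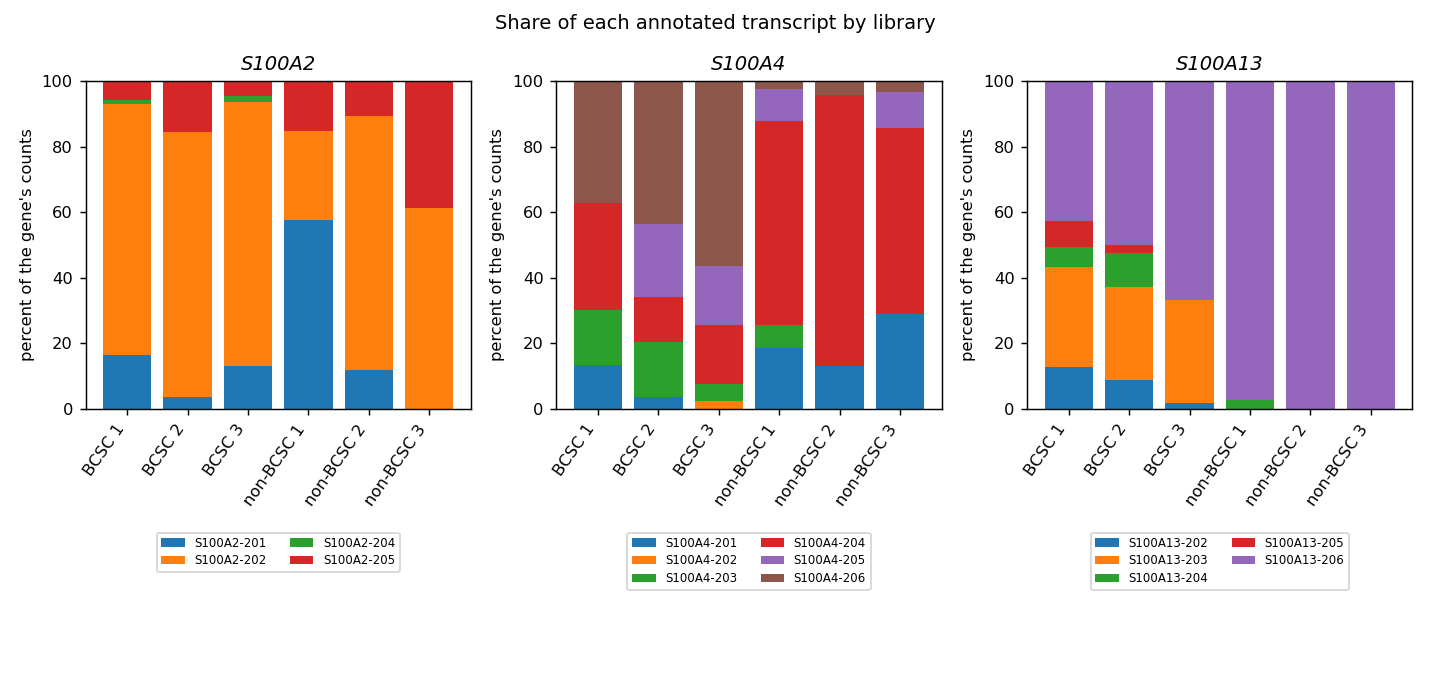
Share of each annotated transcript in the counts of S100A2, S100A4 and S100A13, in percent, as a stacked bar for each library. S100A4-206 is a large part of the 3 BCSC bars of S100A4 and a small part of the non-BCSC bars, and S100A13-206 nearly fills the 3 non-BCSC bars of S100A13.

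Of 11 further S100 genes, 2 passed the filter and neither was called. S100Z had 76, 19 and 93 counts in BCSC against 29, 81 and 75 in non-BCSC, with overlapping groups (log2 fold change -0.65, adjusted p = 0.48 by edgeR's quasi-likelihood test). S100A7A had 0, 8 and 4 counts against 11, 10 and 9 (-1.79, adjusted p = 0.32 in the same test). S100A8, the calprotectin partner of S100A9, had 78 counts in non-BCSC 1, the same library that held all S100A9 counts, and 0 in the others. S100A3, which overlaps S100A4 on the same strand, had 26, 11 and 19 counts in BCSC against 0 in every non-BCSC library. Against a floor of 3 counts in each non-BCSC library this is at least 3.93-fold higher in BCSC, without a test, and reads of the 2 genes may have been divided between them. The 10 annotated S100 pseudogenes held 10 counts in all 6 libraries together.

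Partners and receptors of the family were followed as a list of 20 genes, of which 19 passed the filter. Of these, 2 were called higher and 0 lower, where 8.85% and 11.3% of all tested genes were. The median log2 fold change was 0.24. TLR4, a receptor of S100A8 and S100A9, had 2982, 2294 and 2985 counts in BCSC against 807, 741 and 848 in non-BCSC. The groups lay apart at 159 ± 18.7 CPM and 71.1 ± 8.85 CPM (SD, n = 3 each), a log2 fold change of 1.16 (adjusted p = 0.00074 by edgeR's quasi-likelihood test), called in all 13 alternative fits. BSG, the membrane protein basigin and another receptor of S100A9, had 4072, 2090 and 2033 counts in BCSC against 1017, 958 and 590 in non-BCSC and rose without overlap. Its log2 fold change was 1.03 (SE 0.21, adjusted p = 0.0080 by edgeR's quasi-likelihood test), and it was 0.03 (adjusted p = 0.91) with the correction for GC content and length, 1 of the 7 alternative fits in which it was not called. AGER, the best known receptor, had 0 to 16 counts per library and was not tested.

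Without the minimum fold, 5 of the 19 had an adjusted p under 0.05 in the higher direction and 2 in the lower, where 15.3% and 14.6% of all tested genes did. Beside TLR4 and BSG the higher ones were AHNAK, a giant scaffold that binds the S100A10 and annexin A2 complex, at a log2 fold change of 0.87, MYH9, the myosin heavy chain bound by S100A4, at 0.84, and ANXA1, the partner of S100A11, at 0.61. MYH9 came to -0.40 (adjusted p = 0.048) with the GC content and length correction. The lower ones were CACYBP, the calcyclin-binding protein, at -0.56, which came to 0.18 (adjusted p = 0.34) with that correction, and ANXA6, at -0.52. With the same correction ANXA1 (1.58, adjusted p = 0.00050) and ANXA6 (-1.09, adjusted p = 0.00059) passed the 2-fold threshold as well.

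ANXA2, the annexin that holds S100A10 at the membrane, was among the most abundant of the list and did not pass the test. Its level was 1410 ± 114 CPM in BCSC and 1464 ± 256 CPM in non-BCSC (SD, n = 3 each), with a log2 fold change of -0.05 (SE 0.13, adjusted p = 0.77 by edgeR's quasi-likelihood test). IQGAP1, a scaffold bound by S100P, was at 0.24 (adjusted p = 0.062 in the same test). Within a library S100A10 had 0.212 to 0.242 counts per count of ANXA2 in BCSC against 0.0962 to 0.117 in non-BCSC. S100A10 RNA was thus higher relative to ANXA2 RNA in all 3 BCSC libraries than in any non-BCSC library, a ratio chosen after its values were seen. The proteins and their complex were not measured in these libraries.

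Other EF-hand calcium sensors gave 3 genes called higher and 1 called lower of 19 tested, where 8.85% and 11.3% of all tested genes were. The higher ones were CAPNS1 (log2 fold change 1.63) and CAPN1 (1.30), the small and a large subunit of calpain proteases, and PEF1 (1.68), a penta-EF-hand protein of vesicle coats. The lower one was CETN2 (-2.07), a centriole component. With the GC content and length correction CAPNS1 was at 0.77 and CAPN1 at 0.16, while PEF1 and CETN2 kept their calls. MYL12A, an abundant myosin light chain of the list, had a log2 fold change of 0.16 and did not pass the test (adjusted p = 0.44), but was called at 1.05 (adjusted p = 0.0065) with the same correction. It was not the only gene of the list to gain a call in the higher direction in that fit.

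The fused-type genes, which join an S100 domain to long repeats and serve in the skin barrier, lie between S100A11 and S100A9. Of 7 such genes 5 passed the filter and 1, FLG2, was called lower (log2 fold change -2.84, adjusted p = 0.023 by edgeR's quasi-likelihood test). All 5 had non-overlapping lower levels in BCSC. Over all tested genes 11.3% were called lower and 27.9% had non-overlapping lower levels. With the olfactory receptor background removed, none of the 5 passed the filter, so their difference could not be followed in that fit. In non-BCSC the level of FLG2 was 0.676 times what the background would give for its length, so no level above background was seen for it there.

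Along chromosome 1 the members lie in blocks. S100A10 and S100A11 stand at one end, and S100A13, the last of the tested S100 genes there, starts 1636 kb away. Of the 10 other genes tested between S100A10 and S100A1, 0 were called higher and 1 lower. Non-overlapping levels in BCSC were lower for 7 of the 10 and higher for 0. The median log2 fold change of these 10 was negative and beyond a 2-fold difference. They included the tested fused-type genes described above, which did not pass the filter with the olfactory receptor background removed. Of the 14 tested in the block past S100A1, 5 were called higher and 0 lower, and 10 had non-overlapping higher levels in BCSC, with a median log2 fold change of 0.81. Over all tested genes, 8.85% were called higher, 11.3% were called lower and 24.2% had non-overlapping higher levels. Non-overlapping lower levels were seen in 27.9%. The 5 were DENND4B (1.90), CRTC2 (1.45), SLC39A1 (1.21), JTB (1.20) and INTS3 (1.06). With the GC content and length correction JTB was at 0.88, CRTC2 at 0.49, DENND4B at 0.45, INTS3 at 0.42 and SLC39A1 at 0.40, and none of the 5 was called.

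**Figure D4:**
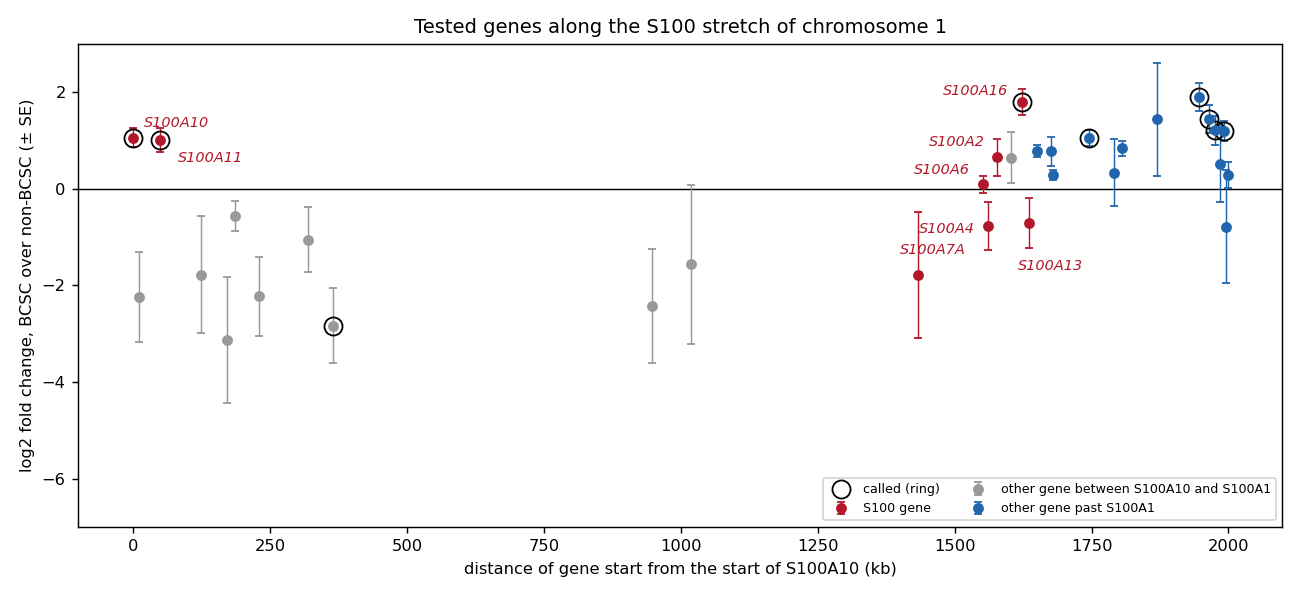
Log2 fold change (± SE) of each tested gene against the distance of its start from that of S100A10 in kb, with rings on called genes. S100A10, S100A11 and S100A16 are the 3 ringed S100 genes, and the 5 ringed genes to the right of S100A13 belong to the block past S100A1.

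Fold changes over the whole table moved with the GC content of the transcripts. The median log2 fold change of tested genes was -0.41 between 40 and 45% GC, -0.03 between 45 and 50%, 0.43 between 50 and 55% and 0.93 between 55 and 60%. In these bands 85 of 5636, 184 of 3824, 400 of 2614 and 627 of 2090 genes were called higher in BCSC. The 7 tested members ranged from 47.6% (S100A10) to 57.8% (S100A16), all above the median of 44.8% over tested genes. S100A10, the member with the lowest GC content, stood at 1.32 after correction for GC content and length. S100A16, with the highest, stood at 1.15 and S100A11, at 53.1% GC, at 0.62. S100A10 and S100A16 kept their calls with this correction, and S100A11 kept an adjusted p under 0.05 but not the 2-fold difference. S100A4 (-1.12, adjusted p = 0.066) and S100A13 (-1.25, adjusted p = 0.061) missed the threshold in the same fit.

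**Figure D5:**
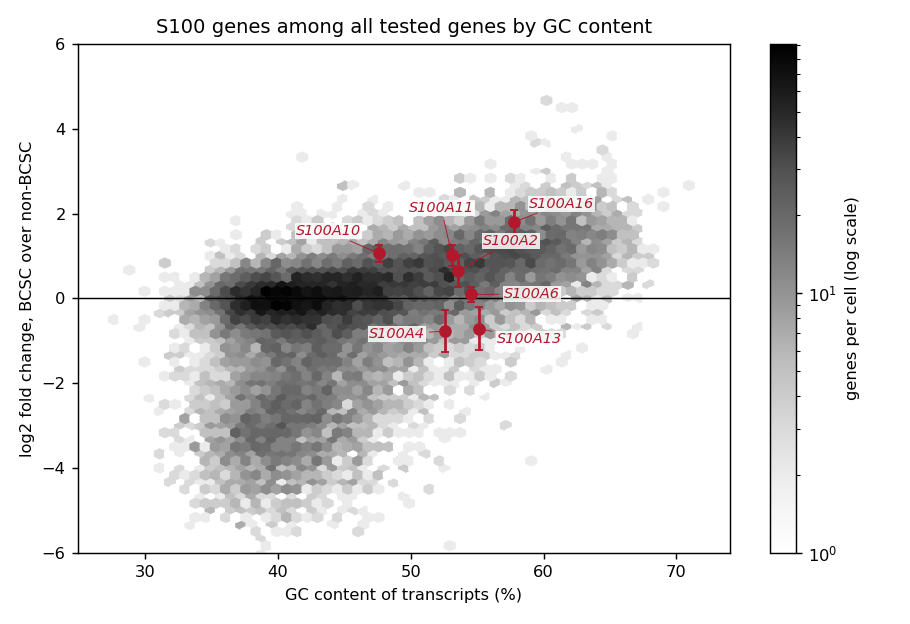
Log2 fold change against the GC content of the transcripts in percent, with grey cells for the number of tested genes on a log scale and red points (± SE) for the 7 tested members. S100A10 lies above the main body of genes at its GC content, while S100A4 and S100A13 lie below it.

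With the olfactory receptor background removed per kilobase, the log2 fold change was 0.83 for S100A10, 0.82 for S100A11 and -0.14 for S100A6, and S100A16 kept its call. The 3 called members stood at 295.5 (S100A10), 30.2 (S100A11) and 29.4 (S100A16) times the background in non-BCSC, where it was highest.

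Markers of other cell types were looked at because S100A8 and S100A9 are myeloid genes and S100A2 and S100A14 epithelial ones. Of 10 myeloid markers 2 were tested and 1 was called, PTPRC (CD45), which had 4, 6 and 19 counts in BCSC against 160, 256 and 216 in non-BCSC. The other tested one, FCER1G, was higher in all 3 BCSC libraries, with 30, 18 and 15 counts against 6, 0 and 0, and was not called (adjusted p = 0.17 by edgeR's quasi-likelihood test). The summed level of the 10 was 2.48 to 3.51 CPM in BCSC and 17.6 to 32.6 CPM in non-BCSC. Of the 10, 2 markers, ELANE and TYROBP, were at 0 in all 6 libraries. Of 10 luminal markers 8 were tested and 3, KRT8, KRT18 and PGR, were called lower in BCSC, where 11.3% of all tested genes were. Non-overlapping levels were lower for 5 of the 8 and higher for 1, against 27.9% and 24.2% of all tested genes. GATA3 had a log2 fold change of 0.57 and was not called (adjusted p = 0.15 by edgeR's quasi-likelihood test). The 10 luminal markers summed to 87.9 to 106 CPM in BCSC and 173 to 210 CPM in non-BCSC. Keratinocyte markers summed to 9.65 to 14.4 CPM in BCSC and 16.1 to 19.7 CPM in non-BCSC. Of their 2 tested genes 0 were called, where 8.85% of all tested genes were called higher and 11.3% lower. The 406 olfactory receptor genes taken as background also summed higher in non-BCSC, at 544 to 1166 CPM against 41.2 to 153 CPM in BCSC. The part of this background in the marker sums was not tested. The 7 genes known to be high in MDA-MB-231 were compared as well. Of these, 2 were called higher in BCSC and 0 lower, where 8.85% and 11.3% of all tested genes were. Non-overlapping levels were higher for 5 of the 7 and lower for 0, and the median log2 fold change was 0.86. They summed to 6816 to 8153 CPM in BCSC and 4282 to 5835 CPM in non-BCSC. The part of all these marker differences in the S100 levels was not tested.

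Genes whose profile over the 6 libraries was most like that of a called member were sought among 12576 genes whose mean count was 50 or more, by Pearson's r of log2(CPM + 0.5). For S100A10 these were NHEJ1 and H2AC8 (r = 0.999 each), for S100A11 PPP2R5D and COPA (0.999 each), and for S100A16 SLC35E2B and RHOBTB2 (0.999 each). The 6 points are the same libraries in 2 groups for every gene, so a difference between the groups enters each r, and the values are a description only.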

How the data were processed

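Per the labels, total RNA of 3 BCSC and 3 non-BCSC libraries was sequenced after a strand-marking (dUTP) preparation. What the authors deposited is 1 table of estimated counts for each transcript and library, whole-numbered and without normalization or filtering. The submitters' processing notes name HISAT2, featureCounts, DESeq2 and hg38, whereas the study's methods name an earlier human build. The step that assigned reads to transcripts, its use of strand and the annotation release are not given in the sources used here. Overlapping transcripts and genes are therefore uncertain.

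Transcripts were matched by identifier to GENCODE 44 on GRCh37 (249787 of 252618, 98.9%), 4 assembler-made identifiers were left out, and counts were summed per gene. Gene positions are from that annotation. Promoter windows are RefSeq's on GRCh38.p14, and start sites were matched to transcripts by sequence. All 10 members were matched. The test was edgeR 4.0.16 (R 4.3.3): TMM, its expression filter, a quasi-likelihood fit (robust, group the sole term) and Benjamini-Hochberg adjustment over all tested genes. CPM used TMM library sizes. The script was tested on simulated data. At a dispersion (spread between libraries beyond counting error) of 0.05, 85 of 90 changes of log2 size 1.5 and 110 of 110 of size 2 were recovered. At a dispersion of 0.2 these were 19 of 105 and 26 of 95. In the reported fit the square root of the common dispersion was 0.45. A gene that was not called is therefore not shown to be unchanged. Members and lists were chosen with earlier results of these data known.

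The rule for named genes was all 10 members, and of each other list the called genes (at most 4 per direction, by p) and the 2 most abundant, of which 1 gene is not reported here. AHNAK, MYH9, ANXA1, ANXA6, CACYBP and SLC39A1 were named after their values were seen. The alternatives tried were DESeq2 1.42.0, RLE size factors, a fit with no filter, at least 10 counts in every library, the replicate number as a block, each library left out, a correction for GC content and length (loess, span 0.3), removal of background estimated from olfactory receptor genes, no minimum fold, and transcripts as deposited. Same-numbered libraries of the 2 groups deviated together with r of 0.18, 0.014 and 0.22, and since 1 of the 3 was not over 0.1 the numbers were not taken to pair the libraries.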

Additional observations from a re-analysis of the deposited data

How the results depend on the processing

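S100A16 kept its call in all 13 alternatives. S100A10 kept an adjusted p under 0.05 in all 13, but its log2 fold change was 0.97 with RLE size factors, 0.97 with DESeq2, 0.91 with a minimum of 10 counts per library and 0.83 with background removed, and 0.92 to 1.36 with 1 library left out. S100A11 was at 0.92 with RLE, 0.92 with DESeq2, 0.86 with at least 10 counts, 0.62 with the GC content and length correction and 0.82 with background removed. It was at 0.83 to 1.22 with 1 library left out. S100A6 turned to -0.053 with a minimum of 10 counts per library, -0.51 with the GC content and length correction and -0.14 with background removed, and ran from -0.068 (without BCSC 1) to 0.29 with 1 library left out. The causes of these moves were not tested. S100A2, S100A4 and S100A13 kept their direction and stayed uncalled in all 13.

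The number of members called higher was 1 with RLE, DESeq2, at least 10 counts and background removed, 1 to 3 with 1 library left out (1 without BCSC 1 or non-BCSC 3), and 0 of the transcripts as deposited. The number called lower was 1 with no filter, S100A9, which rests on non-BCSC 1 alone. Over all genes, 274 transcripts were called higher and 88 lower as deposited, 3125 genes were higher with no minimum fold, and the number lower was 3512 with DESeq2, 1177 with at least 10 counts and 1087 with background removed. With 1 library left out, 959 (without BCSC 1) to 2230 genes were higher and 1103 (without non-BCSC 3) to 3004 lower, with 1198 lower without BCSC 1 and 1143 without BCSC 2.

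With the replicate number as a block, S100A11 was at 0.99 with an adjusted p of 0.0052, which left it just under the 2-fold difference. In that fit 2 members were called higher, and over all genes 1994 were higher and 2321 lower. It changed no other member's call. The SE of every tested member was smaller in that fit, with 0.11 in place of 0.19 for S100A10. The labels do not say whether same-numbered libraries shared more than a number. In deviation from the group means, BCSC 1 and BCSC 3 correlated best with their own numbers (r = 0.18 and 0.22). BCSC 2 correlated best with non-BCSC 1 (r = 0.054), not with its own number (0.014).

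With 3 libraries a group, counts near 0 limit what can be said of S100A9, S100A14 and S100P, wide intervals what can be said of S100A2, S100A4 and S100A13, and folds close to 2 the calls of S100A10 and S100A11.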
